A study of Homo sapiens with 18 samples.

Results

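Interferon-stimulated genes were followed as a set of 42 genes among the 38716 gene symbols of the tables. The set was a list of symbols, given by function and not by level, and all 42 symbols were present in all 18 libraries. It held sensors of viral RNA, factors that carry the interferon signal, and effectors that act against viruses. Ribosome profiling (Ribo-seq, which sequences mRNA fragments protected by ribosomes and called footprints here) and mRNA-seq were made from IMR90, an established line of human fetal lung fibroblasts, so all groups share 1 genetic background. Young cells were IMR90 at low passage, old cells were IMR90 at high passage that had entered replicative senescence, and ICM cells were low-passage IMR90 given inflachromene, a compound whose targets are HMGB1 and HMGB2, which are proteins of chromatin. There were 3 replicates of each of the 3 conditions in each assay. The labels give no dose, time or vehicle for these libraries, and the study's text describes the Ribo-seq treatment as lasting several days. Nothing in the labels says that replicates came from separate cultures, but the study's methods call them independent.

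Interferons are secreted proteins that warn cells of infection. Type I interferons bind the receptor IFNAR1/IFNAR2, whose kinases JAK1 and TYK2 phosphorylate STAT proteins, and STAT2 with IRF9 takes part in the complex ISGF3. ISGF3 binds the interferon-stimulated response element (ISRE) in promoters, while interferon gamma acts through the gamma-activated sequence (GAS). Nucleic acids sensed in the cytosol by RIG-I (the product of DDX58), MDA5 (IFIH1) or cGAS start interferon production, and fibroblasts keep many of these genes at a low level without interferon. Senescent cells are known for interferon signalling fed by DNA in the cytosol.

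The promoter letters of the genes the results turn on are shown first. RefSeq promoter windows (250 bases before to 50 after a gene's start, build GRCh38.p14) were found for 34 of the 42 genes, RIG-I under its current symbol. IRF7, IFIT2, OAS2, OASL, IFITM2, MX2, GBP2 and USP18 were not matched. The ISRE core was searched as GAAANNGAA and the GAS as TTCNNNGAA, where N is any base, on both strands. Matches of the ISRE core may overlap each other and may overlap a GAS match. The ISRE core letters were in a window of 24 of the 34 genes (70.6%), against 2693 of all 27305 genes of the table (9.86%). The GAS letters were in a window of 10 of the 34 (29.4%), against 9.38% of all genes. The windows below are 30 bases long, run 5′ to 3′ in the direction of the gene, and mark the ISRE core, or its reverse complement TTCNNTTTC, in capitals.
IFI6: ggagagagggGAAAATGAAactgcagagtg
ISG15: aagggaaaccGAAACTGAAgccaaatttgg
IFIT3: ttccatcagtTTCACTTTCctttccccttt
IFI27: tgtctgcagtTTCGGTTTCctggaaaatga
SAMD9: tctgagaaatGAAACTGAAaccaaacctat
IFI44L: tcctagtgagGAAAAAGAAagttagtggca
IFI44: cacactgagtTTCAGTTTCctttctctgag
OAS3: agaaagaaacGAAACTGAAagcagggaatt
GBP1: acgaagtactTTCAGTTTCatattactcta
The first 5 belong to genes whose mRNA rose in old cells, the pair IFI44L and IFI44 to neighbours that differed in ICM cells, and the last pair to genes whose mRNA fell with ICM. They lie at chr1:27672288-27672317 on the minus strand (IFI6), chr1:1013386-1013415 on the plus strand (ISG15), chr10:89332469-89332498 plus (IFIT3), chr14:94110619-94110648 plus (IFI27), chr7:93118096-93118125 minus (SAMD9), chr1:78620365-78620394 plus (IFI44L), chr1:78649762-78649791 plus (IFI44), chr12:112938321-112938350 plus (OAS3) and chr1:89065315-89065344 minus (GBP1). The same 30 letters occurred a second time in the IFI44L window, at chr1:78620274-78620303. No ISRE core letters were in the windows of DDX58, STAT2, IRF1, IRF9, OAS1, UBE2L6, HERC6, IFI35, XAF1 and SAMD9L, which says only that these letters are not in these windows. The letters were in 11 of the 17 matched genes whose mRNA rose in old cells and in 7 of the 9 whose mRNA fell there. For ICM cells they were in 5 of the 10 that rose and 7 of the 9 that fell.

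Most of the genes were expressed as mRNA and few gave enough footprints to test. In mRNA-seq, 38 of the 42 genes passed the filter on low counts, and 37 had a mean of at least 1 CPM (reads scaled to the size of the library) in some condition. Taken by condition, 33 reached 1 CPM in young, 36 in old and 34 in ICM cells. The 4 genes under the filter were OAS1, BST2, HERC5 and RSAD2. In Ribo-seq, 12 of the 42 passed the filter (DDX58, STAT2, IRF1, IFIT5, EIF2AK2, IFITM1, IFITM2, IFITM3, GBP1, ISG15, PARP14 and IFI6). IFI44L had 0 footprints in all 9 libraries, and a count of 0 allows up to 3. Because OAS2, OASL and IFI27 passed the mRNA filter only through the old libraries, and IFI44L only through the ICM libraries, these genes had to differ between groups to be tested at all. Their p-values below are therefore from the fit without the filter, with both fits given for IFI44L in old cells. Their log2 changes are from the fit with it. Apart from IFI44L in old cells, the p-values without the filter are the smaller ones, so they are not more cautious. With the filter the adjusted p (edgeR) was 6.37e-07 for OAS2, 1.65e-06 for OASL and 2.35e-06 for IFI27 in old cells. For IFI44L with ICM it was 7.65e-13. Counts called in each comparison are given with and without these genes. Counts sorted by both comparisons are given with them only.

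Depth differed far more in Ribo-seq than in mRNA-seq. The mRNA libraries held between 7902427 and 14144455 reads in the 5′ UTR, CDS and 3′ UTR. The Ribo-seq libraries held between 46239 and 1718521 CDS footprints, with 46239 to 225041 in the ICM libraries. All 42 genes together gave 3414 footprints in young, 4500 in old and 547 in ICM cells. CDS reads were 34.4% of all reads in young replicate 1 and 15.0% in old replicate 2, against 54.7% to 88.8% in the other Ribo-seq libraries. Fibroblast genes were abundant in every mRNA library, although 6 of 8 fell in ICM cells, and COL1A1 went from 14510 CPM in young and 13441 in old to 3064 in ICM cells. Markers of the epithelium, endothelium, leukocytes and plasmacytoid dendritic cells were mostly at or near 0: CD3E, CDH5, CLEC4C and LILRA4 had 0 reads and PTPRC at most 4 in a condition. Of these 15 markers, those above the filter were CD68 (20.6, 33.2 and 58.6 CPM in young, old and ICM) and VWF (0.340, 0.690 and 3.38 CPM).

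Old and ICM cells agreed on some of the genes and not on others. In ICM against young cells 11 of the 38 tested mRNAs rose and 11 fell, where 34.9% of all 13173 tested genes rose and 36.1% fell. In old against young cells 20 rose and 10 fell, where 32.4% of all genes rose and 33.7% fell. Shares of the members were thus 28.9% up and 28.9% down with ICM, and 52.6% up and 26.3% down in old cells. The median log2 change of the 38 genes was -0.04 with ICM (-0.01 over all genes) and 0.34 in old cells (-0.01 over all genes). Without the 4 genes carried over the filter by a single group, 10 of 34 rose and 11 fell with ICM, 16 rose and 10 fell in old cells, and the median in old cells was 0.14. These calls used edgeR's quasi-likelihood test with Benjamini-Hochberg adjustment over all tested genes, at an adjusted p under 0.05. In bulk RNA a change in every cell and a change in the share of cells with the mRNA cannot be told apart.

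Sorted by both comparisons, 10 mRNAs rose in both (DDX58, IFIT2, IFIT3, ISG15, UBE2L6, HERC6, IFI6, IFI44, IFI44L and SAMD9L) and 7 fell in both (DDX60, OAS3, GBP2, PARP9, TRIM21, IFI35 and XAF1). Another 8 rose in old cells without a call in ICM cells (IRF1, IRF9, OAS2, OASL, IFITM1, IFITM3, MX1 and IFI27), and 3 fell in old cells without one (IFIH1, EIF2AK2 and PARP14). STAT2 rose, and IFITM2 and GBP1 fell, with a call in ICM cells and none in old cells. IFIT1 and SAMD9 rose in old cells and fell in ICM cells. Neither comparison called IRF7, IFIT5, MX2, USP18 or ISG20. Of the 38 genes, 26.3% thus rose in both, 18.4% fell in both and 5.26% had opposite calls, where over all tested genes 20.2% rose in both, 23.2% fell in both and 8.33% had opposite calls. These counts and shares include the 4 genes carried over the filter by a single group. They are IFI44L, sorted as risen in both, and OAS2, OASL and IFI27, sorted as risen in old cells alone. Without the filter IFI44L was not called in old cells (adjusted p = 0.0567, edgeR). Both comparisons use the same 3 young libraries, so an error in those libraries moves them together, over all genes as over the members.

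The direct comparison of ICM with old cells does not test against the young libraries. It called 7 mRNAs higher and 20 lower in ICM cells, where 30.7% of all genes were higher and 32.6% lower, and the median of the 38 genes was -0.36 (-0.01 over all genes). Without the 4 genes carried over the filter by a single group, 6 of 34 were higher and 17 lower. Of the 10 that rose in both comparisons with young cells, 5 were lower in ICM than in old cells and 1, IFI44L, was higher. IFI44L passed the filter only through the ICM libraries, and its rise in old cells was not called without the filter. The share over all genes that rose in both is not given here, so this count cannot be read as a result about the members. The 8 that rose and the 3 that fell with a call in old cells alone were called lower and higher, respectively, in ICM than in old cells, a direction that their choice by the old libraries largely sets. The reads of all 42 genes summed to 1220 ± 31.4 CPM in young, 1516 ± 18.7 in old and 1180 ± 32.1 in ICM libraries (SD, n = 3), so the old libraries stood above the rest. Such a sum is set mostly by abundant genes, and IFITM1, IFITM2 and IFITM3 made up 48.1% to 52.3% of it in each library. Without them the sums were 597 ± 5.94, 765 ± 13.6 and 604 ± 6.93 CPM in young, old and ICM libraries. The higher sum in old cells still rested largely on few genes. From young to old cells the mean went from 13.3 to 112 CPM for IFI6, 29.0 to 68.0 for ISG15 and 13.9 to 48.4 for SAMD9L. In the same comparison 10 of the 38 tested mRNAs fell, so the sum does not show a rise across the set.

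**Figure D1:**
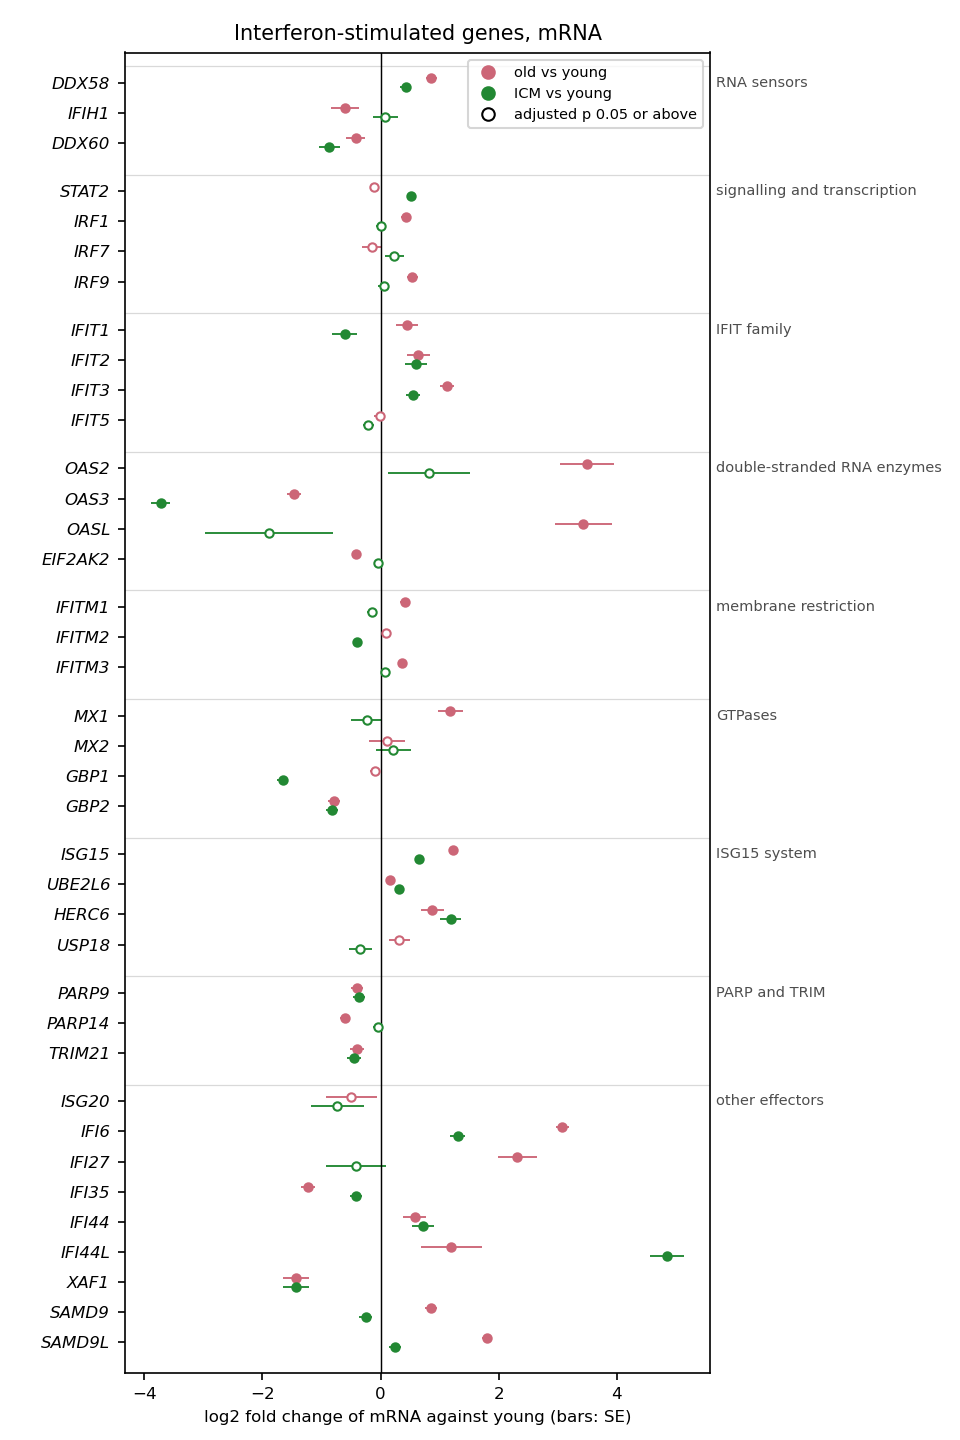
Log2 fold change of mRNA against young cells (x axis) for the 38 interferon-stimulated genes tested, grouped by role, in old (red) and ICM (green) cells. Bars are standard errors, and open points have an adjusted p of 0.05 or above. IFI44L (4.85 with ICM) and OAS3 (-3.73 with ICM) lie farthest from 0 on the ICM side, while OAS2 (3.49), OASL (3.43) and IFI6 (3.08) lie farthest among old cells. OAS2 and OASL passed the filter only through the old libraries, and IFI44L only through the ICM libraries.

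The RNA sensors did not move as a group. DDX58, which encodes RIG-I, was at 15.8, 19.1 and 20.4 CPM in the young libraries, 33.4, 35.7 and 31.3 in the old and 25.5, 24.9 and 24.5 in the ICM libraries. The groups did not overlap, with ICM cells between young and old. Its log2 change was 0.85 ± 0.09 (SE) in old cells (adjusted p = 4.30e-08, edgeR) and 0.43 ± 0.10 in ICM cells (adjusted p = 0.000436). IFIH1, which encodes MDA5, fell by 0.60 (log2) in old cells (adjusted p = 0.0286), with a change of 0.08 ± 0.21 in ICM cells. DDX60, a helicase that aids RIG-I signalling, fell by 0.87 in ICM cells and by 0.42 in old cells (adjusted p = 0.0289). The calls of IFIH1 and DDX60 in old cells were each lost without 4 of the 6 libraries left out in turn (old replicates 1 and 2 and young replicates 1 and 3 for IFIH1, old replicates 1 and 3 and young replicates 2 and 3 for DDX60), with adjusted p up to 0.183 and 0.114.

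Of the signalling and transcription factors, those of the ISGF3 complex split. STAT2 was at 60.2, 61.7 and 62.2 CPM in young, 59.3, 54.9 and 56.5 in old and 82.1, 92.9 and 88.2 in ICM libraries, and rose by 0.51 ± 0.07 on the log2 scale in ICM cells (adjusted p = 4.23e-07). Every ICM library was above every library of the other conditions. IRF9, the DNA-binding part of the complex, rose by 0.53 ± 0.09 in old cells (18.4 to 26.6 CPM on average) and was at 19.1 CPM in ICM cells. IRF1, a factor induced strongly by interferon gamma, was at 32.5, 33.0 and 30.4 CPM in young, 39.8, 43.9 and 45.4 in old and 32.2, 28.7 and 35.4 in ICM libraries. It rose by 0.43 ± 0.09 in old cells (adjusted p = 0.000126), and its ICM and young libraries overlapped. IRF7, which amplifies type I interferon genes, passed the test in neither comparison with young cells.

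The IFIT genes, whose products bind viral RNA that lacks host cap marks, form a cluster on chromosome 10 (IFIT2 at chr10:91043451-91069028, IFIT3 at chr10:91087064-91137230, IFIT1 at chr10:91152303-91166244 and IFIT5 at chr10:91174325-91181362, all on the plus strand, GENCODE genes on GRCh37). IFIT3 had the largest rise of the 4 in old cells. It was at 10.1, 7.85 and 8.58 CPM in young, 18.7, 20.5 and 17.7 in old and 13.4, 11.9 and 12.6 in ICM libraries, and no groups overlapped. The log2 change was 1.12 ± 0.11 in old cells (2.18-fold, adjusted p = 1.33e-08) and 0.54 ± 0.12 in ICM cells (adjusted p = 0.000375). IFIT2 rose by 0.64 ± 0.19 in old and 0.60 ± 0.19 in ICM cells. Its neighbour IFIT1 rose in old cells and fell in ICM cells, and IFIT5 stayed within 0.21 of 0 on the log2 scale in both, with no call. The call of IFIT2 in old cells was lost when CDS reads alone were counted (adjusted p = 0.0541).

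The enzymes that act on or with double-stranded RNA held both ends of the range in old cells. The upper end was OAS2 and OASL, which passed the filter only through the old libraries. Among genes not carried over the filter by a single group, IFI6 of another role rose most there (3.08). The OAS genes encode synthetases that make the second messenger of the nuclease RNase L, and OAS1, OAS3 and OAS2 lie in a row on chromosome 12 (chr12:113343661-113371024, chr12:113375856-113414265 and chr12:113416200-113449528, GRCh37, plus strand). OAS3 was at 24.1, 23.1 and 26.1 CPM in young, 10.2, 7.64 and 9.08 in old and 2.25, 1.76 and 1.44 in ICM libraries. Each ICM library was below each old library, and each old library below each young one. OAS3 fell by 3.73 (log2) in ICM cells (SE 0.15, 13.2-fold lower, adjusted p = 1.54e-15) and by 1.46 in old cells (SE 0.12, adjusted p = 2.47e-10).

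The neighbours of OAS3 were low outside old cells. OAS2 was at 0.496, 0.174 and 0 CPM in young, 2.90, 1.93 and 2.41 in old and 0.376, 0.278 and 0.424 in ICM libraries, so only the old libraries were above 1 CPM. Its log2 change was 3.49 ± 0.46 in old cells (adjusted p without the filter = 7.56e-11) and 0.82 ± 0.69 in ICM cells, where it was not called. OAS1 was not tested and had 2 reads in the young libraries together, 30 in the old and 1 in the ICM libraries. The old to young ratio of OAS1 was 13.4, with an exact 95% counting interval of 3.40 to 116. OASL, a related protein without synthetase activity that lies elsewhere on chromosome 12, was at 0.124, 0.174 and 0.0953 CPM in young, 1.40, 1.85 and 1.30 in old and 0.0751, 0 and 0 in ICM libraries. Its log2 change was 3.43 ± 0.48 in old cells (adjusted p without the filter = 4.74e-08), and a single read was counted in ICM cells, against 52 in old cells. The old to ICM ratio of OASL was 55.6, with a counting interval of 9.55 to 2239. EIF2AK2, the kinase PKR that halts translation on double-stranded RNA, fell by 0.41 in old cells, from 75.0 to 56.4 CPM (adjusted p = 2.30e-05), and was at 73.2 CPM in ICM cells.

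**Figure D2:**
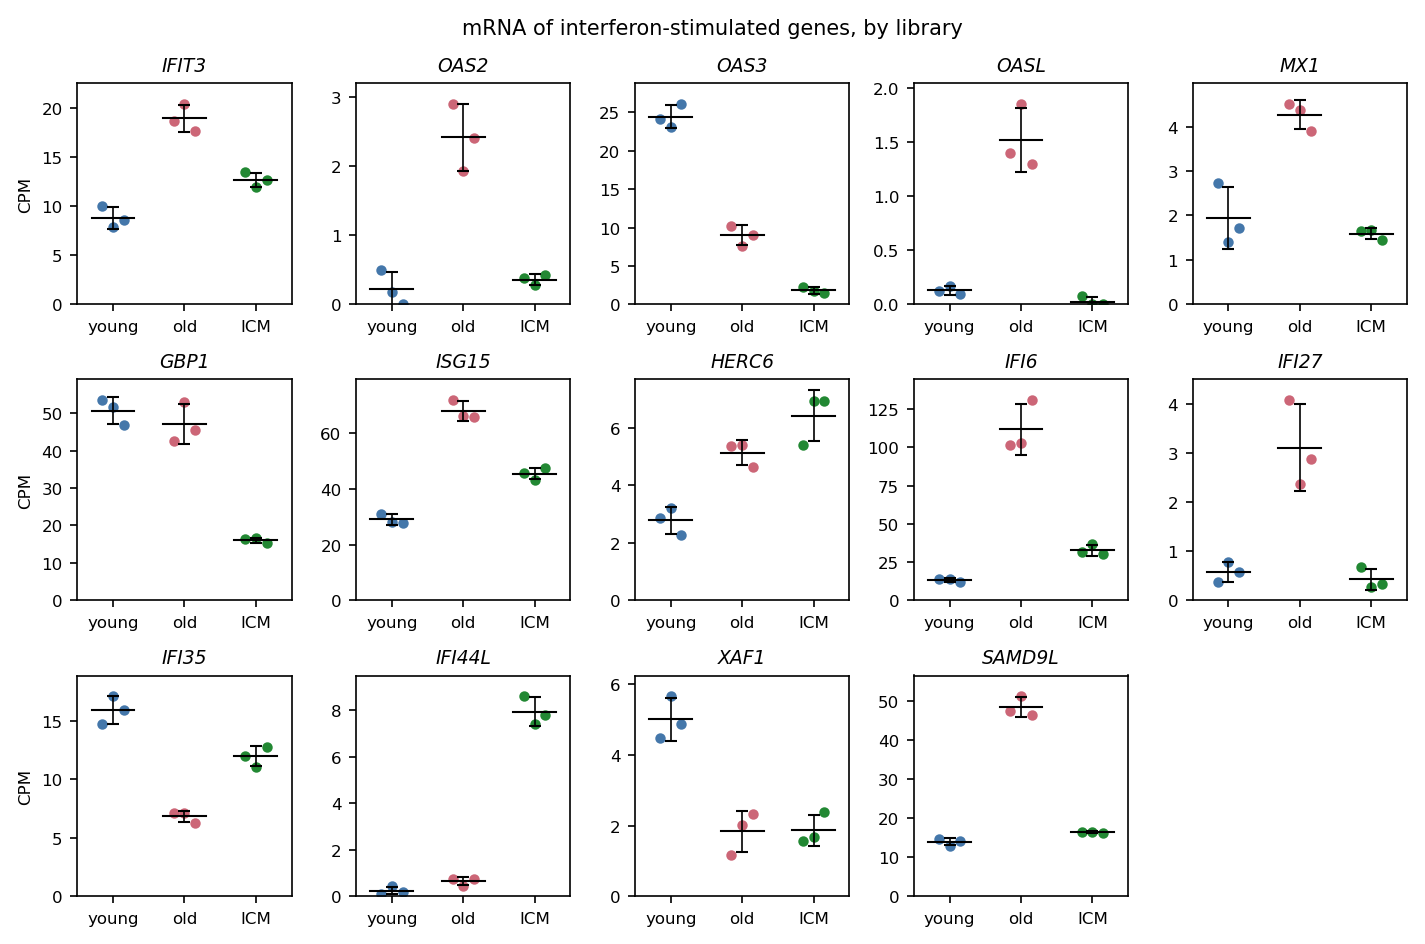
CPM of mRNA (y axes from 0, a scale for each gene) in each of the 9 libraries for the 14 genes with a called change of at least 1 on the log2 scale. Points are libraries, and lines and bars are the mean and SD of 3. Of these genes, IFI44L and HERC6 have their highest mean in ICM cells, and OAS3, GBP1, IFI35 and XAF1 have theirs in young cells.

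Among genes that restrict viruses at membranes, IFITM1 and IFITM3 rose in old cells and IFITM2 did not pass the test there. IFITM proteins sit in endosomal and cell membranes and block virus entry, and IFITM2, IFITM1 and IFITM3 lie next to each other at chr11:303655-329475. IFITM3 was at 325, 342 and 302 CPM in young, 428, 405 and 412 in old and 330.3, 356 and 329 in ICM libraries. It rose by 0.36 ± 0.06 in old cells (1.28-fold, adjusted p = 3.04e-05), without overlap. IFITM1 rose by 0.41 ± 0.08 in old cells, from 65.8 ± 6.90 to 87.9 ± 5.92 CPM (SD, n = 3). IFITM2 fell by 0.40 in ICM cells, from 234 ± 11.1 to 177 ± 5.92 CPM (adjusted p = 9.50e-06), and was at 248 ± 16.6 CPM in old cells. The 3 share sequence, and 35.7% to 70.3% of the 30-base words of their coding sequences also occurred in transcripts of other genes, mainly each other, so the split of reads among them is uncertain. BST2, which encodes tetherin, was under the filter with means of 0.431, 0.885 and 0.134 CPM in young, old and ICM cells.

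The interferon-induced GTPases fell into the dynamin-like MX genes and the guanylate-binding GBP genes. MX1, which traps viral nucleocapsids, was at 2.73, 1.40 and 1.72 CPM in young, 4.52, 4.37 and 3.89 in old and 1.65, 1.67 and 1.44 in ICM libraries. It rose by 1.18 ± 0.22 in old cells (adjusted p = 5.72e-05), and the young and ICM libraries overlapped. MX2 passed the test in no comparison. GBP1 was at 53.6, 51.7 and 46.7 CPM in young, 42.6, 52.9 and 45.6 in old and 16.4, 16.6 and 15.3 in ICM libraries. Young and old overlapped, and all 3 ICM libraries lay below both. GBP1 fell by 1.65 in ICM cells (SE 0.09, 3.15-fold lower, adjusted p = 4.01e-13), while the change in old cells was -0.10 ± 0.08 (adjusted p = 0.310). GBP2 fell in both, by 0.83 with ICM and by 0.79 in old cells. GBP1 shares 43.9% of the 30-base words of its coding sequence with other genes, mainly the pseudogene GBP1P1 and GBP3.

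ISG15 is a ubiquitin-like protein that is joined to other proteins by UBE2L6 and HERC5 and removed by USP18. Its mRNA was at 31.1, 28.2 and 27.7 CPM in young, 72.0, 66.1 and 65.9 in old and 45.8, 43.3 and 47.4 in ICM libraries. The 3 conditions did not overlap, with ICM cells between the others. The log2 change was 1.23 ± 0.08 in old cells (2.35-fold, adjusted p = 3.30e-12) and 0.65 ± 0.08 in ICM cells (1.57-fold, adjusted p = 1.13e-07). HERC6, the neighbour of HERC5, was at 2.85, 3.23 and 2.29 CPM in young, 5.38, 5.41 and 4.64 in old and 5.41, 6.94 and 6.95 in ICM libraries. Old and ICM cells overlapped and both lay above young cells, with log2 changes of 0.88 ± 0.19 and 1.19 ± 0.18 (adjusted p = 0.000322 and 3.76e-06). UBE2L6 rose by 0.31 ± 0.07 in ICM cells and by 0.17 ± 0.07 in old cells (adjusted p = 0.0473). The latter call was lost without old replicate 1 or 2 or any of the 3 young replicates, with adjusted p up to 0.209. USP18 passed the test in neither comparison with young cells but was lower in ICM than in old cells (log2 change -0.66 ± 0.18, adjusted p = 0.00295), and 57.6% of its coding 30-base words are shared with other genes, chiefly USP41.

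PARP9, PARP14 and TRIM21 fell in old cells, and PARP9 and TRIM21 also in ICM cells. PARP9, a partner of a ubiquitin ligase, fell by 0.37 in ICM and 0.40 in old cells, and its ICM call was lost with CDS reads alone (adjusted p = 0.0929). PARP14 is an ADP-ribosyltransferase. It fell by 0.60 in old cells (37.1 to 24.5 CPM, adjusted p = 3.53e-06) and stayed at 36.2 CPM in ICM cells. TRIM21, an antibody receptor in the cytosol, fell by 0.46 in ICM and 0.40 in old cells, and its call in old cells was lost with CDS reads alone (adjusted p = 0.0742).

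The remaining effectors included genes that rose strongly in one or both conditions. IFI6, a protein of the endoplasmic reticulum and mitochondria that blocks flavivirus replication and cell death, was at 14.3, 13.7 and 11.9 CPM in young, 101, 103 and 131 in old and 31.4, 36.8 and 30.01 in ICM libraries. No conditions overlapped. The log2 change was 3.08 ± 0.11 in old cells (8.44-fold, adjusted p = 4.54e-16) and 1.30 ± 0.12 in ICM cells (2.47-fold, adjusted p = 2.92e-09), and ICM cells were 3.42-fold lower than old cells (adjusted p = 2.35e-13). IFI27, a protein of the same family, was at 0.372, 0.785 and 0.572 CPM in young, 4.09, 2.37 and 2.87 in old and 0.676, 0.278 and 0.339 in ICM libraries. Its log2 change was 2.31 ± 0.33 in old cells (adjusted p without the filter = 1.40e-09) and -0.42 ± 0.50 in ICM cells, where it was not called. RSAD2, which encodes viperin, was under the filter with 1 read in young, 30 in old and 6 in ICM libraries, an old to young ratio of 26.8 with a counting interval of 4.46 to 1094.

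IFI44L and IFI44 lie 3651 bases apart on chromosome 1 (chr1:79085587-79111830 and chr1:79115481-79129763, GRCh37, plus strand) and encode cytosolic antiviral proteins. IFI44L was at 0.124, 0.436 and 0.191 CPM in young, 0.753, 0.445 and 0.742 in old and 8.64, 7.40 and 7.80 in ICM libraries. All ICM libraries stood far above the rest. Its log2 change in ICM cells was 4.85 ± 0.28 (28.8-fold, adjusted p without the filter = 1.93e-28), from 8 reads in young and 287 in ICM cells, and in ICM cells 30.3% of its reads lay in the CDS. In old cells the change was 1.20 ± 0.52 (adjusted p = 0.0468), and that call was lost without the filter (adjusted p = 0.0567) and without old replicate 1 or 3 or young replicate 1 or 3, with adjusted p up to 0.146. With the replicate block its adjusted p was 0.0536. IFI44 was at 2.37, 3.56 and 3.93 CPM on average, with log2 changes of 0.57 ± 0.20 in old and 0.72 ± 0.19 in ICM cells. With DESeq2 the old call of IFI44 was lost (adjusted p = 0.0590).

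SAMD9 and SAMD9L are neighbouring genes of chromosome 7 whose products restrict poxviruses and slow translation (chr7:92728826-92747336 and chr7:92759369-92777698, GRCh37, minus strand). SAMD9L was at 14.6, 12.9 and 14.3 CPM in young, 47.5, 51.4 and 46.4 in old and 16.5, 16.6 and 16.2 in ICM libraries. It rose by 1.80 ± 0.09 in old cells (3.49-fold, adjusted p = 4.40e-14). In ICM cells the change was 0.24 ± 0.10 (adjusted p = 0.0307), a call lost without any one of the 3 ICM libraries or young replicate 2 (adjusted p up to 0.156). SAMD9 rose by 0.85 ± 0.10 in old cells, from 15.2 to 27.3 CPM.

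XAF1 and IFI35 fell in both conditions. XAF1, which promotes apoptosis, was at 4.47, 5.67 and 4.86 CPM in young, 1.18, 2.00 and 2.32 in old and 1.58, 1.67 and 2.37 in ICM libraries. The old and ICM libraries overlapped with each other and lay below all young libraries, with log2 changes of -1.43 ± 0.22 in each (adjusted p = 5.93e-06 and 3.72e-06). IFI35 was at 14.8, 17.2 and 15.9 CPM in young, 7.10, 7.12 and 6.30 in old and 12.02, 11.1 and 12.8 in ICM libraries. It fell by 1.23 in old cells (SE 0.12, adjusted p = 5.07e-09) and by 0.42 in ICM cells (SE 0.10, adjusted p = 0.00117), and no conditions overlapped. ISG20, an exonuclease, had means of 0.886, 0.648 and 0.539 CPM and no call.

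Footprints were called changed for 7 of the 12 testable genes in old cells and for 3 in ICM cells. In old against young cells 6 rose (IRF1, IFITM1, IFITM2, IFITM3, ISG15 and IFI6) and 1, EIF2AK2, fell, where 19.3% of the 4643 tested genes rose and 17% fell. For IRF1 and IFI6 no young library was over the cutoff of the filter, 44.4 CPM. IRF1 was over it in 3 old and 2 ICM libraries, and IFI6 in 3 old and 3 ICM libraries. Both were testable only through groups in which they were higher, so the filter itself favoured their rises from young cells. In ICM against young cells 2 rose (STAT2 and IFI6) and 1 fell (GBP1), where 13.7% of all genes rose and 12.9% fell. In ICM against old cells none was higher and 2 were lower (DDX58 and IFI6), where 5.79% of all genes were higher and 7.62% lower. An unadjusted p was under 0.05 for 8, 4 and 7 of the 12 in these comparisons, where 45.7%, 37.2% and 25.7% of all genes were under it.

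IFI6 had the largest footprint change of the 12 in old cells. Its footprints were at 0, 28.8 and 25.5 CPM in young, 282, 141 and 309.9 in old and 64.1, 95.5 and 68.5 in ICM libraries, and no conditions overlapped. Young replicate 1 held 0 IFI6 footprints, old replicate 2 held 7 and ICM replicate 3 held 3. The log2 change was 3.43 ± 0.27 in old cells (10.8-fold, adjusted p = 2.61e-12). It was 1.48 ± 0.47 in ICM cells (adjusted p = 0.0169), a call that was lost without ICM replicate 1 or 2 or young replicate 3 (adjusted p up to 0.0950). That call was also lost without the filter on low counts (adjusted p = 0.0762). ICM cells were 3.86-fold lower than old cells (adjusted p = 6.73e-05). ISG15 footprints were at 59.4, 36.8 and 36.9 CPM in young, 125, 80.5 and 138 in old and 54.2, 68.2 and 68.5 in ICM libraries, and rose by 1.75 ± 0.27 in old cells (adjusted p = 3.10e-06). All old libraries were above all others, but by few reads in the smallest libraries. Old replicate 2 held 4 ISG15 footprints, and young replicate 1 and ICM replicate 3 held 3 each. The change in ICM cells was 0.66 ± 0.45, and young and ICM libraries overlapped.

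The IFITM footprints rose in old cells as their mRNAs did for IFITM1 and IFITM3. The split of footprints among the 3 genes is uncertain. Of their coding 30-base words, 35.7% to 70.3% also occurred in transcripts of other genes, mainly each other, so the 3 rises may not be separate. IFITM3 footprints were at 416, 313 and 329 CPM in young, 598, 503 and 683 in old and 498, 464 and 319.7 in ICM libraries, a log2 change of 0.90 ± 0.19 in old cells (adjusted p = 0.000296) without overlap. Young replicate 1 held 21 IFITM3 footprints and old replicate 2 held 25. IFITM1 footprints were at 99.04, 52.7 and 80.8 CPM in young, 128, 101 and 181 in old and 143, 109 and 45.7 in ICM libraries, and IFITM2 footprints at 337, 168 and 164, at 239.6, 241 and 312, and at 197, 218 and 159.8 CPM. Old and young overlapped for IFITM2 through young replicate 1. The changes in old cells were 1.03 ± 0.25 for IFITM1 (adjusted p = 0.00182) and 0.60 ± 0.21 for IFITM2 (adjusted p = 0.0230). Both calls were lost with the replicate block (adjusted p = 0.0912 and 0.267) and with DESeq2 (adjusted p = 0.159 and 0.483). They were also lost on leaving out old replicate 3 or young replicate 2 for IFITM1, with adjusted p up to 0.167, and old replicate 1 or 3 or young replicate 2 or 3 for IFITM2, with adjusted p up to 0.502.

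IRF1 and EIF2AK2 footprints moved in opposite directions in old cells. IRF1 footprints were at 19.8, 36.8 and 34.996 CPM in young, 75.4, 60.4 and 88.3 in old and 78.8, 95.5 and 0 in ICM libraries. The rise in old cells was 1.17 ± 0.31 (adjusted p = 0.00377), without overlap, and the call was lost without old replicate 1 or 3 or young replicate 2 or 3, with adjusted p up to 0.163. Young replicate 1 held 1 IRF1 footprint and old replicate 2 held 3. EIF2AK2 footprints were at 198, 104 and 117 CPM in young, 51.2, 40.2 and 63.6 in old and 88.7, 95.5 and 159.8 in ICM libraries, so the old libraries were below all others. Old replicate 2 held only 2 EIF2AK2 footprints. EIF2AK2 footprints fell by 1.09 in old cells (SE 0.26, adjusted p = 0.00134), a call lost without old replicate 1 or young replicate 3 (adjusted p up to 0.0747). With the replicate block the IRF1 call was lost (adjusted p = 0.110). With DESeq2 the calls of IRF1 and EIF2AK2 were both lost (adjusted p = 0.195 and 0.0524).

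In ICM cells the footprint calls rested on few reads. STAT2 footprints were at 119, 125 and 149.5 CPM in young, 159, 221 and 139.6 in old and 251, 518 and 45.7 in ICM libraries, where ICM replicate 3 held 2 footprints and lay below all young libraries. The log2 change was 1.06 ± 0.31 (adjusted p = 0.00929), and the call was lost without ICM replicate 2 or young replicate 2 or 3 (adjusted p up to 0.240). GBP1 footprints were at 119, 63.9 and 81.4 CPM in young, 61.2, 80.5 and 61.6 in old and 19.7, 40.9 and 22.8 in ICM libraries, which held 8 footprints in all. They fell by 1.60 in ICM cells (SE 0.53, adjusted p = 0.0234), as the mRNA did by 1.65, and the call was lost without ICM replicate 1 or young replicate 3 (adjusted p up to 0.258). Of the 30-base words of the GBP1 coding sequence, 43.9% are shared with other genes. DDX58 footprints were at 39.6, 41.6 and 50.9 CPM in young, 75.4, 20.1 and 69.8 in old and 9.85, 27.3 and 45.7 in ICM libraries, with 2 footprints in each ICM library and overlap between ICM and old. The ICM to old change of -1.88 ± 0.61 (adjusted p = 0.0353) was not called without ICM replicate 1 (adjusted p = 0.378). With the replicate block the calls of STAT2, GBP1 and DDX58 were lost (adjusted p = 0.0606, 0.0902 and 0.191). The same calls were lost with DESeq2 (adjusted p = 0.0850, 0.101 and 0.348).

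**Figure D3:**
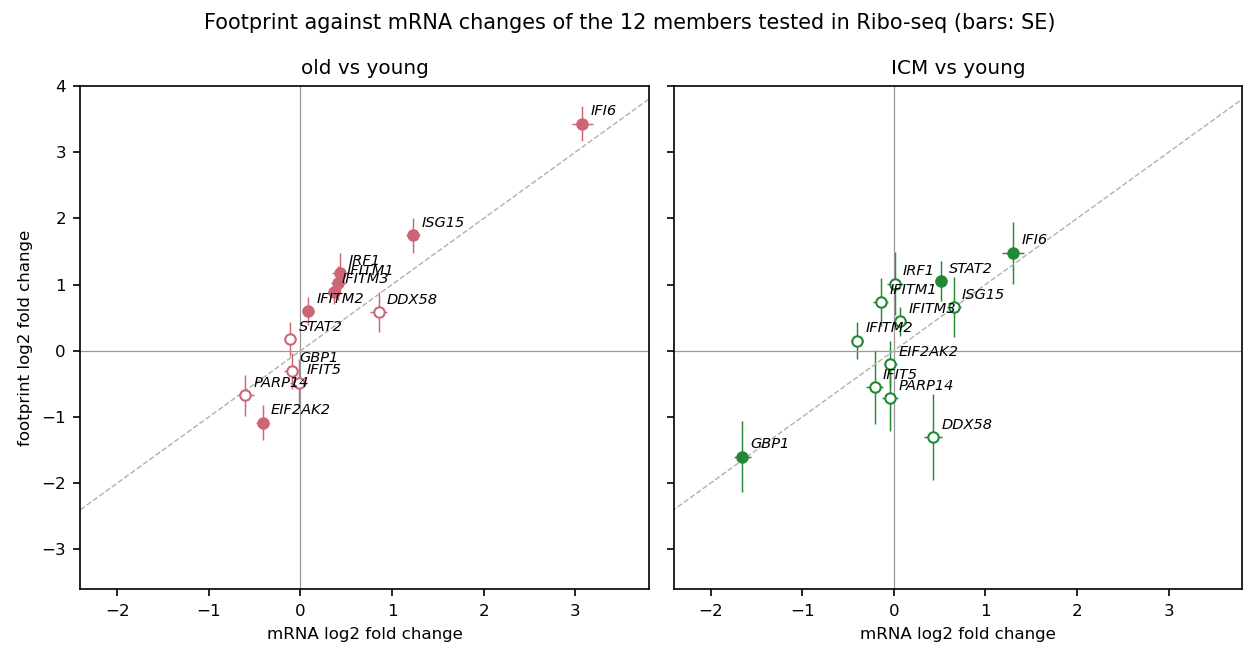
Footprint log2 fold change (y axis) against mRNA log2 fold change (x axis) from young cells for the 12 genes tested in Ribo-seq, in old (left) and ICM (right) cells. Bars are standard errors, open points have a footprint adjusted p of 0.05 or above, and the dashed line marks equal changes. IFI6 lies at the upper right in both panels (3.08 and 3.43 in old, 1.30 and 1.48 in ICM cells) and GBP1 at the lower left with ICM.

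**Figure D4:**
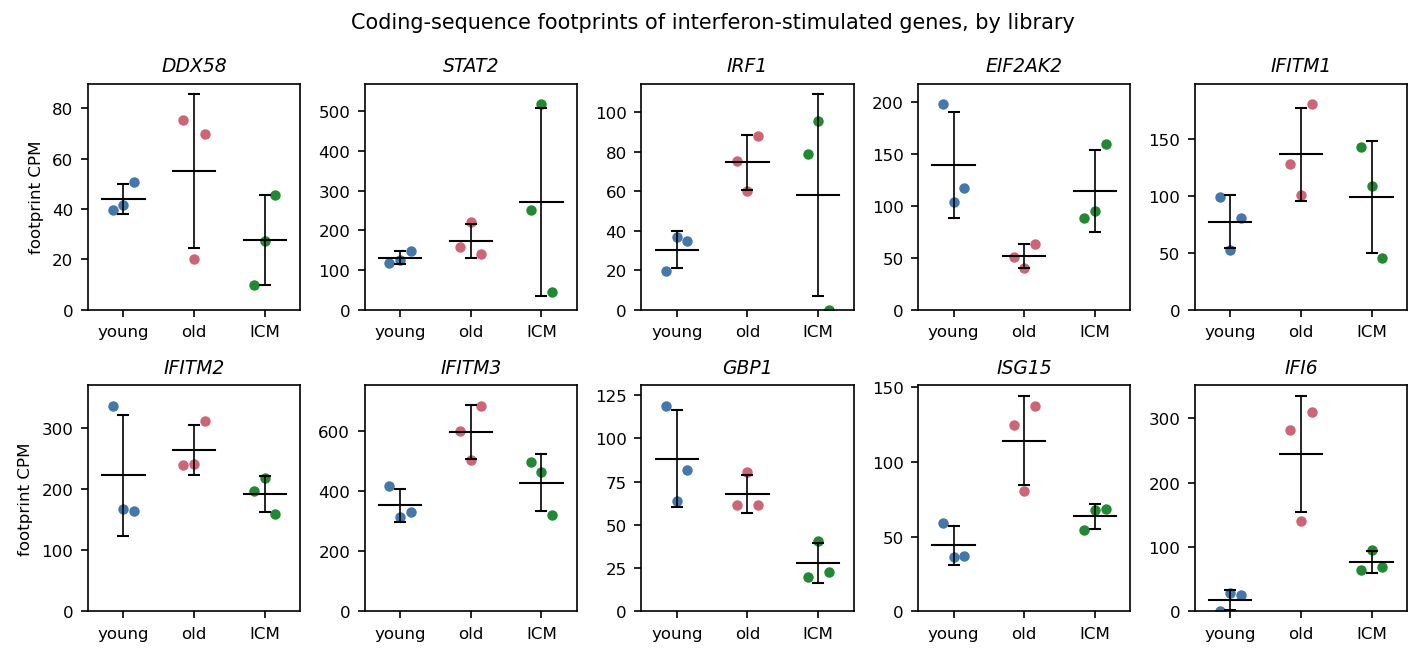
Footprint CPM in the CDS (y axes from 0, a scale for each gene) in each of the 9 Ribo-seq libraries for the 10 genes with a called footprint change. Points are libraries, and lines and bars are the mean and SD of 3. The ICM libraries spread widely for STAT2 (45.7 to 518 CPM) and IRF1 (0 to 95.5 CPM).

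Translational efficiency, the footprint level relative to the mRNA level, was called changed for 0 of the 12 genes in each comparison, where 2.38% of the 4618 tested genes were called with ICM, 1.43% in old cells and 0.346% between ICM and old cells (edgeR, assay by condition interaction with the lysate as a block). DESeq2 also gave 0 in each. An unadjusted p was under 0.05 for 2 genes with ICM (DDX58 and IFITM1), 4 in old cells (IRF1, EIF2AK2, IFITM2 and IFITM3) and 1 between ICM and old cells (DDX58), where 15.8%, 12.3% and 11.1% of all genes were under it. The IFITM3 change in old cells was 0.51 ± 0.19 (adjusted p = 0.239). Without the lysate block, 3 genes were called in old cells, with IFITM2 and IFITM3 up and EIF2AK2 down. The share of all genes called in that fit is not given here, so this count cannot be read as a result about the members. The 30 genes under the Ribo-seq filter were not tested here. IFI44L, with the greatest mRNA rise in ICM cells, had 0 footprints. OAS3 had 42 footprints in young, 12 in old and 2 in ICM libraries, counts not scaled to depth. Scaled to depth, young, old and ICM means were 11.8 ± 10.7, 11.1 ± 7.97 and 9.25 ± 12.02 CPM (SD, n = 3). The libraries of the conditions overlapped, so these counts do not show whether OAS3 footprints fell with the mRNA.

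The other genes of the pathway came from a list of 39. No interferon gene was expressed at a testable level. Of the 10 listed, IFNB1, IFNA2, IFNG, IFNK, IFNW1, IFNL1, IFNL2 and IFNL3 had 0 reads in all 9 mRNA libraries, IFNA1 had 0, 2 and 1 reads and IFNE 8, 2 and 9 reads in young, old and ICM cells. Of the 28 tested genes, 11 rose and 10 fell with ICM, where 34.9% of all genes rose and 36.1% fell. In old cells 7 rose and 9 fell, where 32.4% of all genes rose and 33.7% fell, so these shares lay near those of all genes.

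Among receptors and kinases, IFNAR1, IFNGR1 and IL10RB rose in both conditions. IFNAR1, a chain of the type I receptor, went from 64.7 ± 9.24 CPM in young to 98.4 ± 2.71 in old and 97.3 ± 7.79 in ICM libraries (log2 changes 0.60 ± 0.08 and 0.59 ± 0.08). JAK1 fell by 0.17 with ICM and 0.29 in old cells. IRF2, a repressor of some of these genes, rose by 0.25 ± 0.09 with ICM and fell by 0.93 in old cells.

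Of the 10 sensors and adaptors, 6 fell and 3 rose with ICM, and 4 fell and 1 rose in old cells, a list too short to set against the shares over all genes just given. IFI16, a nuclear DNA sensor, fell from 88.3 ± 5.58 CPM to 33.8 ± 3.20 in old and 49.2 ± 1.89 in ICM libraries. Its footprints fell too, by 1.68 in old and 1.58 in ICM cells (adjusted p = 3.67e-06 and 0.00197). TMEM173, which encodes the adaptor STING, rose by 0.80 ± 0.08 in old cells and fell by 0.31 in ICM cells, and its footprints rose by 1.34 ± 0.35 in old cells (adjusted p = 0.00287). TLR3, an endosomal sensor of double-stranded RNA, rose by 1.01 ± 0.18 with ICM and fell by 1.39 in old cells. Of the feedback inhibitors, SOCS1, which blocks JAK kinases, fell in both, from 17.5 ± 1.41 CPM in young to 4.37 ± 0.502 in old and 9.09 ± 0.702 in ICM libraries (log2 changes -2.02 ± 0.13 and -0.95 ± 0.11). SOCS3 rose by 0.33 ± 0.07 with ICM and fell by 0.82 in old cells.

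**Figure D5:**
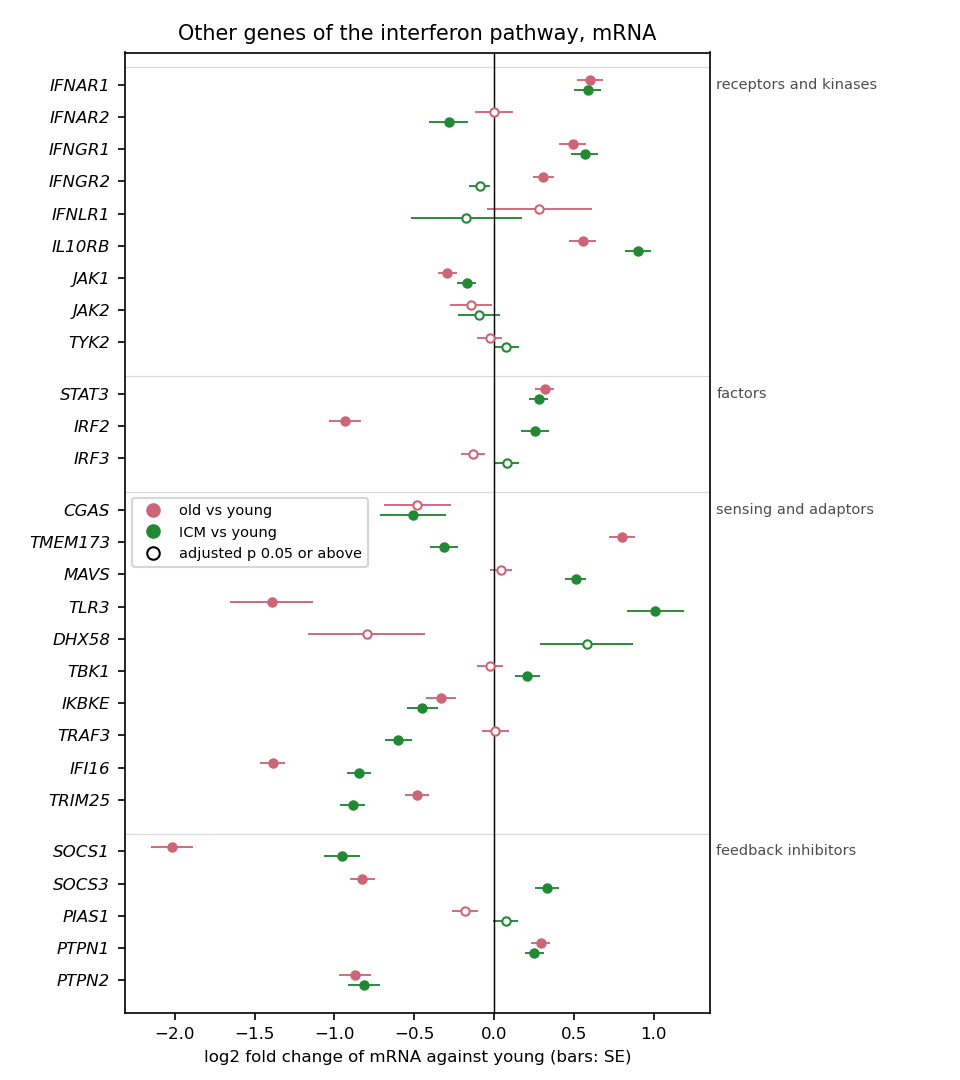
Log2 fold change of mRNA against young cells (x axis) for the other interferon pathway genes tested, all but 1 of them, grouped by role, in old (red) and ICM (green) cells. Bars are standard errors, and open points have an adjusted p of 0.05 or above. SOCS1 lies farthest left in old cells (-2.02), and TLR3 (1.01) lies right of 0 with ICM and left of it in old cells (-1.39).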

How the data were processed

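The deposited tables, 1 for each of the 18 libraries, list a symbol on each line, with estimated counts by region (5′ UTR, CDS, 3′ UTR and other classes) that the authors did not scale to depth. The submitters' processing notes name STAR 2.6.0c, featureCounts, DESeq2, deepTools and the build GRCh37, with no roles. The study's methods describe unique featureCounts counts for other RNA-seq libraries. The tables used here hold fractional values, and how their reads with several matches were placed is not given in the sources used here. The study's methods describe cycloheximide lysates divided between Ribo-seq and poly(A) mRNA-seq. Groups came from the sample titles.

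mRNA was the sum of 5′ UTR, CDS and 3′ UTR, and footprints were CDS reads, both rounded to whole numbers. edgeR 4.0.16 in R 4.3.3 (glmQLFit, glmQLFTest, TMM, filterByExpr) fitted the 9 libraries of each assay together, over 13173 genes for mRNA-seq and 4643 for Ribo-seq, and p-values (two-sided) were adjusted by Benjamini-Hochberg. CPM is edgeR's count scaled to the TMM-adjusted library size, and SE is the fitted log2 change divided by the root of F. Translational efficiency was the assay by condition interaction in a fit of all 18 libraries that blocked on the lysate (4618 genes passed both filters). DESeq2 1.42.0 was an alternative. The procedure was tested on simulated data. Intervals and limits for counts of 0 cover counting error only.

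All 42 genes were placed by role. Values in every library and the test are given for mRNAs called in ICM or old against young cells with a log2 change of at least 1 and a mean of at least 1 CPM in the higher group (14 genes), and for genes called in Ribo-seq or translational efficiency (10 genes). The rest are given by level, count and range. Other values per library are for genes of the same complex or cluster. The members, role lists and markers were chosen with earlier results of these data known. The counts over the pathway list include 1 gene whose values are not reported here. Gene positions came from GENCODE on GRCh37, and promoters from RefSeq on GRCh38.p14, with no conversion between builds.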

Additional observations from a re-analysis of the deposited data

Results flagged for a closer look

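IFIT1 and SAMD9 moved in opposite directions from young cells in old and ICM cells, and the difference between the conditions was tested directly in edgeR. IFIT1 was at 6.58, 5.58 and 7.63 CPM in young, 11.0, 9.56 and 6.30 in old and 4.96, 4.90 and 3.05 in ICM libraries. It rose by 0.44 ± 0.19 on the log2 scale in old cells (adjusted p = 0.0432) and fell by 0.61 in ICM cells (SE 0.21, adjusted p = 0.0143), and ICM cells were lower than old cells by a log2 change of -1.04 ± 0.20 (adjusted p = 7.36e-05). The rise in old cells lost its call in 6 of 12 alternatives, among them the fits without old replicate 1 or 2 or young replicate 1 or 2, with adjusted p up to 0.208, and the fall in ICM cells lost it in 3 of 12, among them the fits without ICM replicate 3 or young replicate 3, with adjusted p up to 0.0935.

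SAMD9 was at 14.9, 14.3 and 16.5 CPM in young, 25.2, 31.4 and 25.5 in old and 12.3, 13.1 and 12.9 in ICM libraries. It rose by 0.85 ± 0.10 in old cells (adjusted p = 1.71e-07) and fell by 0.25 in ICM cells (SE 0.11, adjusted p = 0.0496), and ICM cells were lower than old cells by a log2 change of -1.11 ± 0.10 (adjusted p = 2.74e-09). The fall in ICM cells lost its call in 9 of 12 alternatives, among them the replicate block (adjusted p = 0.0539) and the fits without any one of the 3 ICM libraries or young replicate 1 or 3, with adjusted p up to 0.189. The direct differences between ICM and old cells kept their call for both genes in all 12 alternatives.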

How the results depend on the processing

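No result reversed. Of the mRNA calls, 18 of 22 with ICM, 22 of 30 in old cells and 24 of 27 between ICM and old cells were kept in every alternative. With a log2 change over 0.6 also required, the counts fell to 11, 17 and 15. Footprint counts were less stable. With ICM the count of 3 became 1 with DESeq2, 1 with the compared groups only (5 genes tested), 1 with the replicate block, 7 at an adjusted p under 0.15, and 0 to 4 when one library was left out, with 0 without young replicate 3, 1 without ICM replicate 1 and 2 without ICM replicate 2 or young replicate 2. In old cells the count of 7 became 3 with DESeq2, 4 with the replicate block, 11 without the filter, 11 with the compared groups only, and 4 to 9 when one library was left out, with 4 without old replicate 1, old replicate 3, young replicate 2 or young replicate 3. Between ICM and old cells the count of 2 became 1 with DESeq2, 1 with the compared groups only, 1 with the replicate block, 6 at an adjusted p under 0.15, 4 without the library of fewest footprints in each group, and 1 to 4 when one library was left out (4 without ICM replicate 3, 1 without ICM replicate 1, old replicate 1 or old replicate 3, and 3 without old replicate 2 or ICM replicate 2). The cause was not tested. The translational efficiency fit has the lysate as its replicate block, and with no replicate block it had 3 calls in old cells. Shares over all genes are not given for the alternatives. The counts in this section therefore show how the members' calls depend on the processing, not how the members differ from other genes. All alternatives had been listed with earlier results of these data known.

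Across conditions, deviations from group means of libraries with the same number correlated with r between -0.0555 and 0.103 in mRNA-seq and 0.00467 and 0.0557 in Ribo-seq. With the block the mRNA counts were 21, 29 and 27. Within lysates, mRNA and footprint deviations correlated with r between -0.0795 and 0.136, so the lysate block rests on the study's methods. Since these correlations were low even where the methods describe a shared lysate, they cannot show whether replicate numbers pair the conditions. The ICM footprints, 547 over all 42 genes, limit what Ribo-seq could show.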
